A study of Mus musculus with 4 samples.

Results

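Interferon beta (Ifnb1), the interferon regulatory factors Irf1, Irf2, Irf3, Irf5, Irf7, Irf8 and Irf9, and the signal transducer Stat2 were followed across 4 single-colour Agilent arrays of RAW264.7 cells, a mouse macrophage line transformed with Abelson leukaemia virus. The members were chosen by name: every non-control probe annotated with one of these 9 gene names was taken, which gave 17 of 56605 probes and 9 of 37074 genes and transcripts on the array. Each group was 1 culture on 1 array. The first held wild-type cells without treatment (the naive cells), the second wild-type cells given lipopolysaccharide (LPS, the bacterial cell wall component sensed by TLR4), the third untreated Mfp2-/- cells and the fourth Mfp2-/- cells given LPS. Mfp2, the product of Hsd17b4, is an enzyme of peroxisomal beta-oxidation. The sources used here do not state the LPS dose or duration, how the knockout was made or whether it is 1 clone. All groups share the transformed line, and there were no replicates, so no difference between 2 arrays carries a test, and the culture, the position on the slide and the group cannot be told apart. In bulk RNA, fewer cells of a type and less RNA per cell cannot be told apart either.

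In macrophages, TLR4 signals through the adaptor TRIF to the kinases TBK1 and IKKε, which phosphorylate IRF3. Phosphorylated IRF3 switches on Ifnb1 together with NF-κB and AP-1 proteins at the Ifnb1 enhancer. Secreted interferon beta then acts on its receptor, whose Janus kinases phosphorylate STAT2; STAT2 and IRF9 are subunits of ISGF3, the complex that binds interferon-stimulated response elements (ISRE) and induces, among many genes, Irf7, which feeds back on interferon production. These steps are largely protein modifications, which an mRNA array does not measure.

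Stretches upstream of the start sites are shown because letters bound by the pathway's own factors can be looked for there; no value here tests whether these stretches act on the genes. RefSeq promoter windows of build GRCm38.p6 (250 bases before to 50 after the start; 12 windows for the 9 members, all of which matched by symbol) were searched on both strands for the ISRE core consensus, the STAT element (GAS) letters TTCNNNGAA and the NF-κB consensus. Of all 32851 windows of the same length, 3.44% held the ISRE core, 8.3% the GAS letters and 4.51% the NF-κB consensus. The matches are in capitals, each in the orientation of the gene.
Ifnb1, chr4:88522886-88522925 (− strand), NF-κB match starting 116 bases before the start: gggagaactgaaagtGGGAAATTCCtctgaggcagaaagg
Irf1, chr11:53769909-53769947 (+ strand), GAS match starting 90 bases before the start: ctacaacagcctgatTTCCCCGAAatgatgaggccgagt
Irf1, chr11:53769986-53770013 (+ strand), NF-κB match starting 13 bases before the start: ggccgagtccgggccGGGGAATCCCgct
Irf2, chr8:46739495-46739544 (+ strand), ISRE and GAS matches starting 241 and 224 bases before the start: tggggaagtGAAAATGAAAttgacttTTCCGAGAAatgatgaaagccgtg
Irf2, chr8:46739713-46739744 (+ strand), NF-κB match starting 17 bases before the start: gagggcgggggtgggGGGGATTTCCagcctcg
Irf8, chr8:120736172-120736228 (+ strand), GAS matches starting 171 and 153 bases before the start: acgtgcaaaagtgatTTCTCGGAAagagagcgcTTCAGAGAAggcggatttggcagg
Stat2, chr10:128270261-128270300 (+ strand), ISRE match on the reverse strand starting 222 bases before the start: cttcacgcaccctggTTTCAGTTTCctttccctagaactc
The ISRE core were found for 2 of the 9 members (Irf2 and Stat2), the GAS letters for 3 (Irf1, Irf2 and Irf8) and the NF-κB consensus for 3 (Ifnb1, Irf1 and Irf2). The windows of Irf3, Irf5, Irf7 and Irf9 held none of these letters, which says nothing about elements of other spelling or elsewhere.

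The probes are 60 bases long. Most members are read by a pair of probes at different positions, and 3 of the probes cross an exon junction, since their mm9 coordinates span more than 60 bases. They are shown because they read these transcripts across a splice junction; the Irf1 and Stat2 ones were below background on 2 arrays each.
Irf1, A_52_P175685, chr11:53587446-53587591: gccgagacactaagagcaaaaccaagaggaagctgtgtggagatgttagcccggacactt
Irf7, A_51_P421876, chr7:148450664-148451014: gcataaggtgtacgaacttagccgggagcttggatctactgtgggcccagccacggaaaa
Stat2, A_66_P102138, chr10:127719861-127720302: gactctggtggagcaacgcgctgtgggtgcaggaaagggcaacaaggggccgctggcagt

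Signals were the background-subtracted processed intensities of the scanner software, in arbitrary units; differences are on a log2 scale after each array's 75th percentile had been subtracted. A gene was called between 2 arrays when its signal differed at least 2-fold with both above background, or when a bound on the dim array reached 2-fold. The 4 arrays had 75th percentiles of 303.4 to 369.8 and 47.4 to 49.7% of spots well above background, and no non-control spot was saturated. Probes printed more than once gave the technical error of a difference, as an SD in log2. At signals of 100 or more it was 0.0697 to 0.125 for the pairwise comparisons and 0.143 for the difference of the LPS responses. Below 100 it was 0.286 to 0.297 for the pairwise comparisons and 0.41 for the difference of the LPS responses. The values below 100 rest on only 4 to 9 probes per array. This error covers spot error within an array, not the spread between cultures. Hsd17b4 was at 4482 units in wild-type cells, 2915 with LPS, 2545 in knockout cells and 1217 in knockout cells with LPS. The genotype difference was −0.86 log2 in untreated cells and −1.17 after LPS. The transcript was still well above background on both knockout arrays; whether the probe lies in the deleted part is not stated in the sources used here, so it is no full check of the labels. Of 10 macrophage markers, 9 were above background on all 4 arrays (Mrc1 was not), and the 4 fibroblast markers on none. The macrophage markers were not all steady. With LPS, Adgre1 (2.10 and 3.04) and Cd14 were called higher in both genotypes. In the knockout, Fcgr3 (−3.21) and Csf1r (−1.42, or −0.99 by its second probe) were called lower with LPS. Between genotypes with LPS, Fcgr3 was called lower in the knockout (−2.27). Its second probe went the other way in these comparisons (1.74 and 1.02). Of the lymphoid, epithelial and endothelial markers, Cd3e was above background on all 4 arrays (LPS differences of 0.23 and 0.27), and Cd3d, Pax5, Ms4a1, Cdh1 and Kdr on 1 or 2; of these Cd3d was called higher with LPS in both genotypes, and Pax5 and Cdh1 higher with LPS in wild-type cells and lower in the knockout with LPS. Of 5 dendritic cell markers, Itgax and Siglech were above background on all 4 arrays, Zbtb46 and Xcr1 on none, and their summed scaled signal (in multiples of the 75th percentile) was 59.97, 73.5, 32.5 and 85.2 in the order given above, nearly all of it Siglech. By the probes used, these markers did not move alike. Between untreated genotypes Siglech was at −1.07 and Itgax at 1.32. With LPS Itgax was at 2.19 in wild-type cells and 0.80 in the knockout, where Siglech was at 0.16 and 1.47. A further Itgax probe passed 2-fold with LPS in both genotypes (2.74 in wild-type cells), so in the knockout it rose as Siglech did. Between untreated genotypes that probe gave 0.67, below 2-fold. The part of these markers in the results was not tested.

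Ifnb1 encodes the secreted interferon that acts back on the macrophage and its neighbours. Its probe lies on chromosome 4 at 88168023 to 88168082 (mm9). Its signal was 41.3 in untreated wild-type cells, 402 with LPS, 50.5 in untreated knockout cells and 1266 in knockout cells with LPS. Both LPS arrays were far above both untreated arrays, and the knockout LPS array was the highest. LPS minus untreated was 3.43 log2 (10.8-fold) in wild-type cells and 4.93 (30.5-fold) in the knockout. The response in the knockout exceeded that in wild-type cells by 1.5 log2, and with LPS the knockout signal was 3.35 times the wild-type one, while without LPS the genotypes differed by 0.25, less than the technical SD of dim probes. Under the normexp correction the wild-type difference was 2.28 in place of 3.43, and the knockout excess with LPS stayed between 1.66 and 1.91 over the 6 alternatives. Among all genes, the difference of the LPS responses for Ifnb1 lay at the 99.5 percentile. Both untreated signals of Ifnb1 lay in the range below 100, where the technical error was larger.

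**Figure D1:**
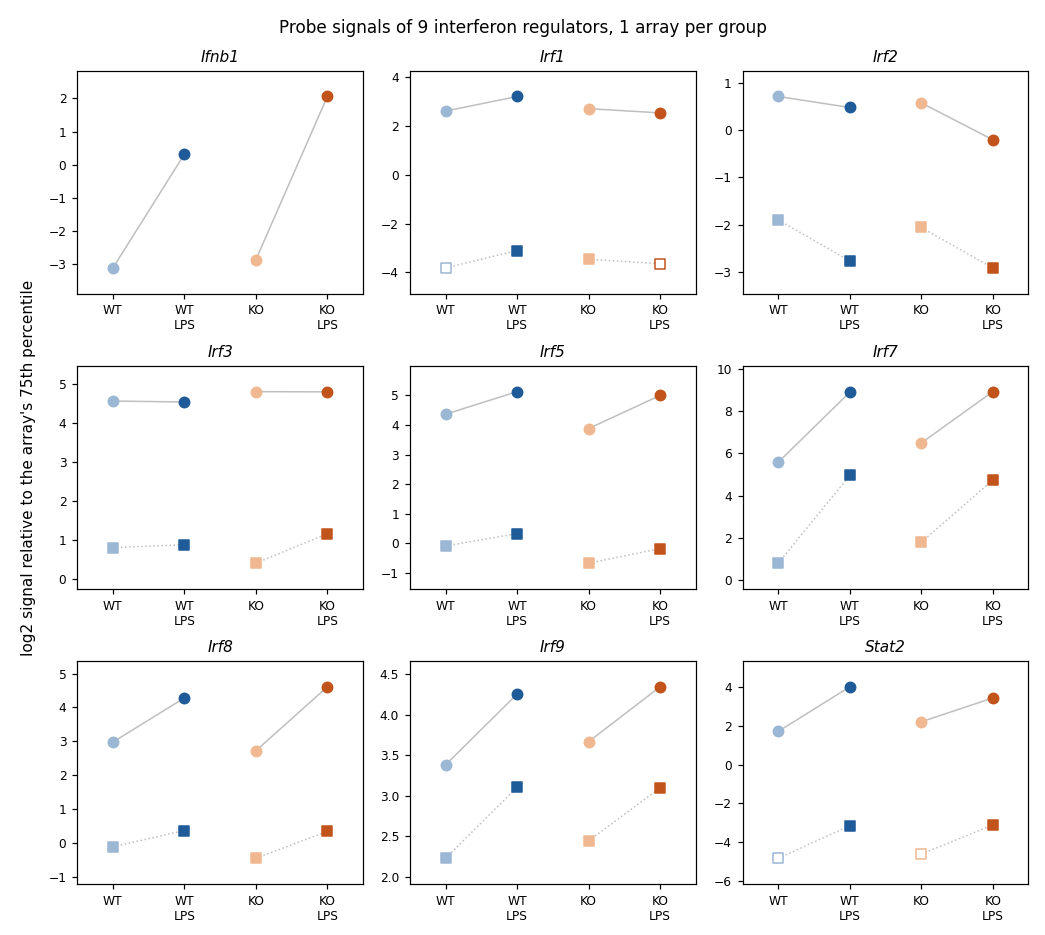
Scaled signal (log2, with the 75th percentile of the array at 0) of the 9 regulators on the 4 arrays, 1 panel per gene, with circles for the probe used for each gene, squares for further probes and unfilled symbols for spots not well above background; the panels have separate axes. By the circles, Ifnb1, Irf5, Irf7, Irf8, Irf9 and Stat2 stand higher on both LPS arrays than on both untreated arrays, and Ifnb1 is highest on the knockout LPS array.

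Irf3 is the constitutive factor that TBK1 activates, and Irf7 the inducible one that amplifies interferon production. Irf3, read on chromosome 7 at 52257700 to 52257759, was at 8491, 7526, 10362 and 8471 units, which gave LPS differences of −0.02 and −0.01 log2 and genotype differences of 0.24 and 0.26. A second Irf3 probe gave 0.08 and 0.75 for LPS and −0.40 and 0.28 for genotype, so the probes disagree on the sign of the untreated genotype difference.

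Irf7, read on chromosome 7 at 148449104 to 148449163, was at 17153 units in wild-type cells, 155180 with LPS, 33357 in knockout cells and 148810 in knockout cells with LPS. LPS differences were 3.33 log2 (10-fold) in wild-type cells and 2.44 (5.44-fold) in the knockout. The junction probe gave 4.17 (18-fold) and 2.96 (7.77-fold), larger than the bright probe in both; the cause was not tested. The genotypes differed by 0.91 without LPS (1.88-fold higher in the knockout; 0.99 by the junction probe) and by 0.03 with LPS, a value whose sign differed between settings (−0.28 to 0.20). The untreated knockout array lay above the untreated wild-type array while the LPS arrays lay close together. The LPS response in knockout minus that in wild-type cells was −0.88 log2 (−1.21 by the junction probe; −0.77 to −1.11 over the alternatives).

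Irf5 is a myeloid factor for inflammatory cytokine genes, Irf8 a factor of macrophage and dendritic cell identity and of inflammatory gene control. Irf5, on chromosome 6 at 29486901 to 29486960, was at 7376, 11282, 5445 and 9707 units. Its LPS difference was 0.76 log2 in wild-type cells and 1.12 (2.17-fold) in the knockout, against genotype differences of −0.48 and −0.13; the weaker second probe gave LPS differences of 0.42 and 0.49. Irf5 passed 2-fold in the knockout only narrowly, and not under quantile normalization (0.98), spike-in centring (0.89), the deposited series table (0.98) or the mean of its probes (0.81). Irf8, on chromosome 8 at 123280324 to 123280383, was at 2818, 6267, 2438 and 7401 units. Its LPS difference was 1.30 (2.47-fold) in wild-type cells and 1.89 (3.70-fold) in the knockout, and the second probe gave 0.48 and 0.79. With the probes averaged, the wild-type difference was 0.89, below 2-fold. The genotypes differed by −0.26 without LPS and 0.33 with it, a response larger by 0.58 in the knockout.

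Irf1 is an interferon and NF-κB inducible activator, and Irf2 competes for the same sites and limits it. Irf1, on chromosome 11 at 53590746 to 53590805, was at 2190, 2987, 2424 and 1763 units, so that LPS minus untreated was 0.60 log2 in wild-type cells and −0.17 in the knockout. The wild-type LPS array was the highest and the knockout LPS array the lowest. The responses differed by −0.77, and neither response reached 2-fold; the knockout value lay between −0.41 and −0.03 over the alternatives. The junction probe, dim on 2 arrays, gives no difference of the responses. Irf2, on chromosome 8 at 47932486 to 47932545, was at 584, 448, 550 and 263 units, giving LPS differences of −0.23 and −0.78; a dimmer probe gave −0.86 and −0.85. With spike-in centring the knockout difference of the brighter probe was −1.01, past 2-fold. With LPS, knockout minus wild type was −0.68 by the brighter probe and −0.15 by the dimmer one.

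Irf9 and Stat2 encode subunits of ISGF3. Irf9, on chromosome 14 at 56228806 to 56228865, was at 3736, 6164, 4701 and 6172 units, with LPS differences of 0.87 and 0.68 and a second probe at 0.88 and 0.65. Neither probe passed 2-fold. Stat2, on chromosome 10 at 127729834 to 127729893, was at 1182, 5265, 1725 and 3318 units. LPS minus untreated was 2.31 (4.94-fold) in wild-type cells and 1.23 (2.34-fold) in the knockout, a difference of the responses of −1.08. Without LPS the knockout array was the higher one (0.50), and with LPS the wild-type array was (−0.58). Spike-in centring put the knockout response just under 2-fold (0.9973), and median centring the difference of the responses (−0.96). The Stat2 junction probe was dim on both untreated arrays, so it gives only bounds, at least 1.80-fold higher with LPS in wild-type cells and at least 2.11-fold in the knockout, and no difference of the responses. On the LPS arrays, where it was above background, its genotype difference was 0.04. With the probes averaged, dim signals included, the difference of the responses was −0.63.

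**Figure D2:**
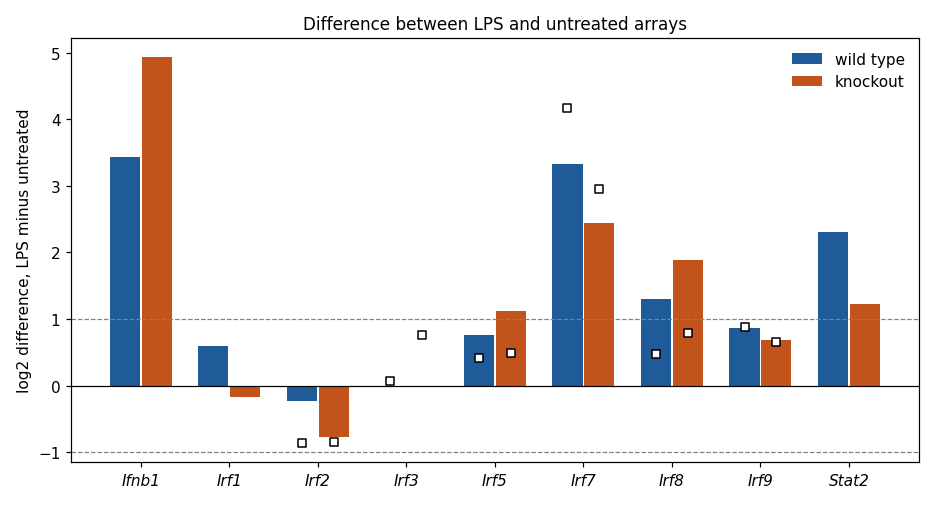
LPS minus untreated (log2) of each of the 9 regulators in wild-type and in knockout cells, with bars for the probe used for each gene, open squares for further probes above background on both arrays and dashed lines at the 2-fold threshold. Ifnb1, Irf5 and Irf8 have the larger value in the knockout, and Irf1, Irf7, Irf9 and Stat2 the larger one in wild-type cells.

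In wild-type cells 4 of the 9 members (Ifnb1, Irf7, Irf8 and Stat2) were called higher with LPS, against 9.71% of all genes compared, and none lower, against 8.58%. In the knockout 5 were called higher (the same 4 and Irf5), against 11%, and none lower, against 12.5%. The median difference of the members was 0.87 log2 in wild-type cells and 1.12 in the knockout, and over all genes 0.01 and −0.01. The comparisons below share arrays with those above, so they are not independent of them. In untreated cells no member was called between genotypes, where 3.09% of genes were called higher and 3.9% lower in the knockout. With LPS, Ifnb1 alone was called higher in the knockout (1.85% of all genes) and none lower (4.39%). For the difference of the LPS responses, Ifnb1 was called higher (1.69% of all genes) and Stat2 lower (2.92%), and Irf7 at −0.88 came just short. The median of the 9 was −0.19, with 4 above 0 and 5 below.

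**Figure D3:**
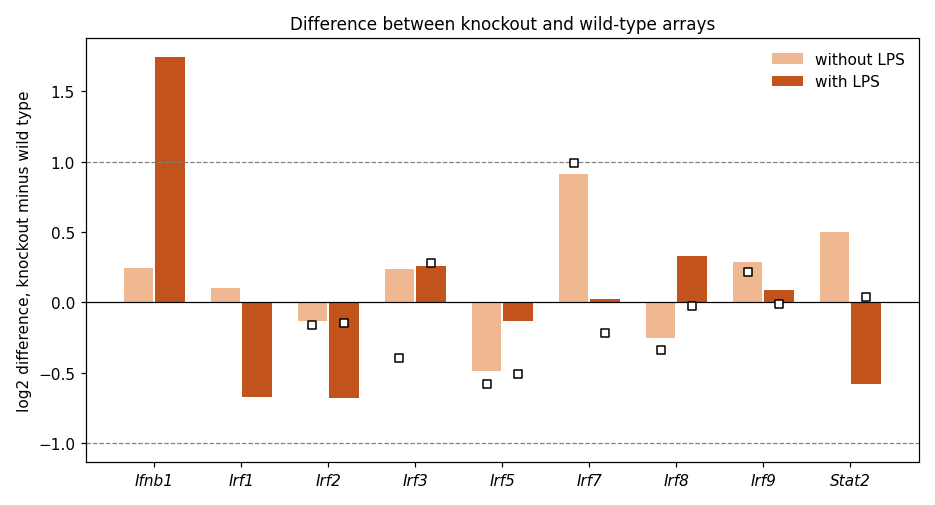
Knockout minus wild type (log2) of each of the 9 regulators without LPS (light bars) and with LPS (dark bars), for the probe used for each gene, with open squares for further probes above background on both arrays and dashed lines at 2-fold. Ifnb1 with LPS is the value beyond the threshold, at 1.74; Irf7 is at 0.91 without LPS and 0.03 with it.

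A fit with additive terms for LPS and genotype leaves 1 residual degree of freedom and treats any difference between the LPS responses as noise. Its p-values rest on that difference and on a variance prior shared over all genes fitted, which added 2.055 degrees of freedom. They do not measure the spread between cultures. By limma with Benjamini-Hochberg adjustment over 17377 genes, the LPS term passed 0.05 for 5 of the 9 members, against 11.2% of all genes in that direction. Ifnb1 had a coefficient of 4.18 log2 (SE 0.45, adjusted p = 0.02999) and Irf7 2.89 (SE 0.28, adjusted p = 0.02904). Irf8 (1.60, adjusted p = 0.03416), Irf5 (0.94, 0.04476) and Irf9 (0.78, 0.04606) also passed. Stat2, at 1.77 (SE 0.33), just missed, with an adjusted p of 0.0518, and its p ranged from 0.01409 to 0.07816 over the alternatives; Irf5 and Irf9 reached 0.1032 and 0.1283 there and Irf8 0.05948. Irf1, Irf2 and Irf3 did not pass (adjusted p = 0.5468, 0.1551 and 0.9305). The genotype term passed for no member by limma (0 at an unadjusted p under 0.05; the lowest adjusted p was 0.574, for Ifnb1) and for 0 of all genes, of which 1709 had an unadjusted p under 0.05; a trended prior called 23 higher and 63 lower.

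The rest of the pathway was read from lists of known genes. With LPS, the shares of all genes called higher and lower were 9.71% and 8.58% in wild-type cells and 11% and 12.5% in the knockout. For knockout against wild type they were 3.09% and 3.9% without LPS and 1.85% and 4.39% with LPS. For the difference of the LPS responses they were 1.69% and 2.92%. The counts below stand against these shares. Of 17 further interferon genes on the array, 13 were below background on every array; the alpha genes are near-identical copies and those detected were close to background. By bounds, Ifna13 was at least 2.35-fold and Ifnl3 at least 2.13-fold higher with LPS in the knockout, while Ifna15 was at least 3.04-fold lower there and at least 3.16-fold higher in untreated knockout than in untreated wild-type cells. In the receptor and Janus kinase list Jak2 and Jak3 were called higher with LPS in both genotypes (Jak2 1.76 and 1.54; Jak3 1.497 and 1.79), of 9 compared. The other Jak3 probes did not reach 2-fold in either genotype. Of the other IRF and STAT genes, Irf4 was at 81.5, 420, 98.0 and 135 units, called higher with LPS in wild-type cells (2.52) but not in the knockout (0.75), and lower in the knockout with LPS (−1.55); its difference of the responses was −1.77. The second Irf4 probe went the same way in the called comparisons (2.87, −2.28 and −4.15), but gave −1.28 for LPS in the knockout and 1.87 between untreated genotypes. Irf4 was not the only gene of its list called with LPS. Stat3 was called higher with LPS in both genotypes (1.52 in wild-type cells and 1.78 in the knockout). A further Stat3 probe gave 1.85 and −0.08 there, and 2.16 between untreated genotypes.

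Upstream of Ifnb1, 13 genes of the TLR4 route were compared. In wild-type cells 3 were called higher (Ikbke, the IKKε kinase gene, 2.44; Ticam1, which encodes TRIF, 1.81; Cd14, 1.25) and 1 lower (Ticam2, −1.12). The shares of all genes were 9.71% and 8.58%, and the median of the list was 0.68. In the knockout 5 were called higher (Ikbke 2.77, Ticam1 2.26, Cd14 1.64, Tank 1.26, Tbk1 1.15) and none lower, with a median of 0.71. A second Cd14 probe gave 0.83 in wild-type cells, below 2-fold. Azi2 and Tbkbp1 were not called, but some of their further probes passed 2-fold with LPS in both genotypes. Those of Azi2 gave 0.74, 1.15, 1.46 and 1.24 in wild-type cells and 0.72, 1.11, 2.03 and 1.26 in the knockout. Those of Tbkbp1 gave 0.83 and 1.21 in wild-type cells and 0.87 and 1.55 in the knockout. By the probes used, none of the 13 genes was called in the difference of the LPS responses. Among 7 enhanceosome partners, Nfkb1 was called higher in both genotypes (1.71 and 1.70), and Jun was at 2589, 3483, 997 and 3028 units. Jun, an AP-1 subunit, was called lower in the untreated knockout (−1.42) and higher with LPS in the knockout (1.89) but not in wild-type cells (0.58), a difference of responses of 1.31.

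Downstream, all 15 interferon-stimulated effector genes were called higher with LPS in both genotypes, with medians of 4.65 in wild-type cells and 3.43 in the knockout. In untreated cells 4 were called higher in the knockout (Oasl2 2.77, Mx1 1.51, Ifi44 1.40, Isg15 1.21) and Cxcl10 lower (−1.06), against 3.09% and 3.9% of all genes. The second probes did not reach these calls, with Mx1 at −0.56, Ifi44 at 0.47 and Cxcl10 at −0.20; Oasl2 and Isg15 have 1 probe. With LPS none was called between genotypes, and the median was −0.18. The response was called smaller in the knockout for 6 of 14 (Oasl2 −2.57, Mx1 −1.89, Ifi44 −1.499), against 2.92% of all genes. The median was −0.94, against −0.19 for the 9 regulators. The second probes gave −0.30 for Mx1 and −0.75 for Ifi44, both below 2-fold. Of 10 nucleic acid sensors and adaptors, 5 were called higher with LPS in each genotype (Zbp1 6.74 and 5.32; Ifih1 3.91 and 2.99; Dhx58 3.40 and 2.18) and 2 in the untreated knockout (Zbp1 1.29, Dhx58 1.22). The response was called smaller in the knockout for 3 of 9 (Zbp1 −1.42, Dhx58 −1.23, Ddx58 −1.06), against 2.92% of all genes, with a median of −0.64. Second probes gave −1.10 for Zbp1 and −1.39 for Dhx58, while the 3 further Ddx58 probes all fell short of 2-fold. Between untreated genotypes the second probes fell short as well, with Zbp1 at 0.93 and Dhx58 at 0.74. For Ifih1 the second probe went past 2-fold where the probe used did not. It gave 1.08 between untreated genotypes (0.56 by the probe used) and −1.58 for the difference of the responses (−0.92).

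The 13 feedback regulators compared gave called differences with LPS for 4 genes in wild-type cells (Socs3 5.52, Usp18 3.17, Socs1 2.35 among them) and for 3 in the knockout (4.87, 2.21 and 1.89), where Irf2bp2 was called lower (−1.24); none was called between genotypes. Of the 6 IRF1 and IRF8 associated targets compared, all 6 were called higher with LPS in wild-type cells (Nos2 7.64, Il27 3.35, Tap1 2.72) and 3 in the knockout (Nos2 7.44, Il27 3.98, Tap1 1.49). Il15 (1.09) and Tap1 (1.04) were called higher in the untreated knockout, and with LPS none was called. Their response was called smaller in the knockout for 3 of the 6 (Il15 −1.75, Psmb9 −1.26, Tap1 −1.23), against 2.92% of all genes. Irf1 itself was at −0.77 there and Irf8 at 0.58. A second Tap1 probe gave 0.96 between untreated genotypes and −0.81 for the difference of the responses, both below 2-fold.

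**Figure D4:**
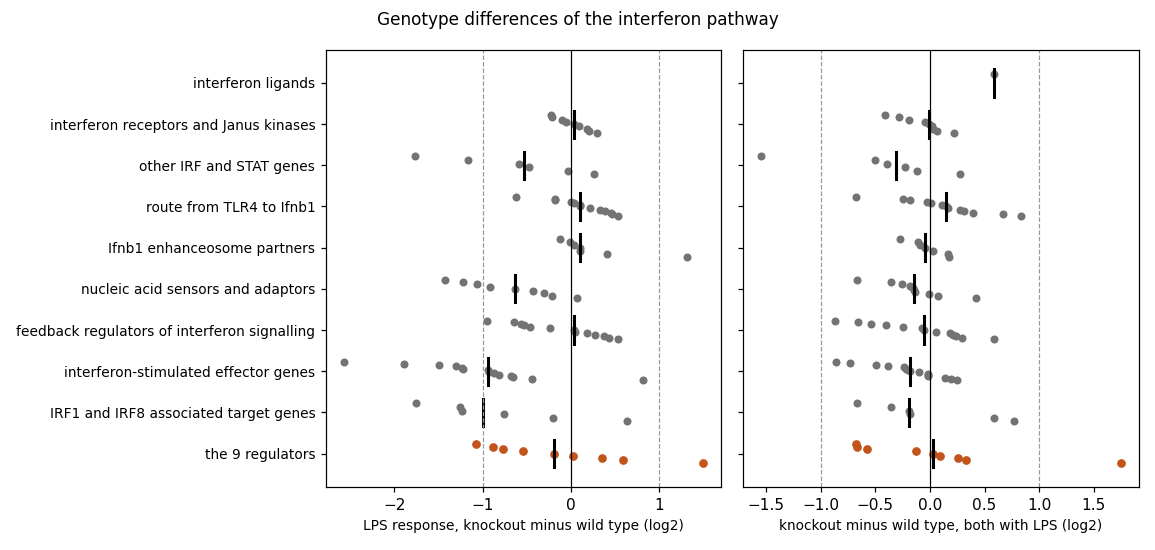
Differences (log2) of the genes of each list: on the left the LPS response in knockout minus that in wild-type cells, on the right knockout minus wild type with both given LPS; each point is a gene measured above background on the arrays compared, the short black line is the median of the plotted points and dashed lines mark 2-fold. On the left the effector genes (median −0.94) and the IRF1 and IRF8 associated targets (−0.99) lie mostly below 0, while the 9 regulators spread from Stat2 at −1.08 to Ifnb1 at 1.5; the ligand row on the right holds 1 gene.

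The genes whose profiles over the 4 arrays were nearest to each of 3 members were found among 11208 named genes above background on all 4, by the distance between log2 profiles centred on their own means. For Ifnb1 these were Trib3 (distance 0.325), C5ar1 (0.415), Chac1 (0.502), Micall2 (0.514) and Nfkbiz (0.700). For Irf7 they were Xaf1 (0.198), Phf11c (0.206), Usp18 (0.208), Dhx58 (0.239) and Cd274 (0.259), of which Usp18 and Dhx58 also stand in the lists above. For Irf8 they were Smox (0.0447), Tmem170 (0.0646), Tsga8 (0.0966), Diap2 (0.102) and Olfr287 (0.115). Tmem170 and Tsga8 were below 100 units on all 4 arrays, and Olfr287 on both untreated arrays. In that range the technical SD of 1 array was 0.190 to 0.222 log2, larger than these distances. With 4 arrays a close profile is easily met, and nothing about shared control follows from it.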

How the data were processed

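Cy3-labelled total RNA from 4 cultures of RAW264.7 cells was read on single-colour Agilent arrays of 60-base probes, 1 culture per group. The labels and headers place all arrays on 1 slide. The intensity values deposited by the authors are scanner output, background-subtracted and detrended within each array by Agilent's Feature Extraction software, version 10.7.1.1 in the file headers (9.5.1.1 per the submitters' processing notes). The deposited series table of intensity values equals a quantile normalization of those signals to within 0.01 log2 for nearly all probes; how the authors made it is not given in the sources used here. Other columns of the deposited files are flags of 0 or 1 per spot (well above background, saturated, outlier).

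From these, each processed signal was divided by the 75th percentile of the non-control probes on its array and put on a log2 scale. Outlier spots were left out. To take 1 probe per gene, probes with a value on every array came first. Among these, probes above background on at least 1 array were preferred, then the highest mean. All probes of the members are given. Calls needed a 2-fold difference. The members and the gene lists were chosen with earlier results of these data known. Named genes are the 9 members, in each list those with the 3 largest absolute differences of a comparison described, and the 5 nearest profiles of Ifnb1, Irf7 and Irf8; Irf4, Jun, Tank, Tbk1 and the other called genes named beside small counts were chosen after their values were seen. The additive model was fitted with limma 3.58.1 in R 4.3.3 on genes above background on at least 2 arrays. Values were computed with Python 3.11.15, and both procedures were tested on simulated data. For the additive fit the simulated LPS effects were the same in both genotypes. That test therefore does not cover genes whose LPS responses differ. Alternatives were normexp with an offset of 50, quantile normalization, centring on 7 spike-in probes or the median, the deposited table, the mean of a gene's probes, folds of 1.5 and 4 and other filters. Precision rests on 1 array per group. No mm9 annotation was used here, so exon and UTR positions of the probes are not given. The values of 1 gene of the lists are not reported here.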

Additional observations from a re-analysis of the deposited data

Results flagged for a closer look

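The values of Irf1 had opposite signs in the genotypes: LPS minus untreated was 0.60 log2 in wild-type cells and −0.17 in the knockout, a difference of the LPS responses of −0.77. With 1 array per group the difference was not tested. It was between −0.84 and −0.65 over the 6 alternatives, and neither response reached 2-fold. The knockout value was close to 0 under median centring (−0.03).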

How the results depend on the processing

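With 1 array per group no replicate could be left out, and the slide could not be a block because all arrays share it. No paired analysis was possible because each group has 1 sample. Of the member differences under the alternatives, 249 kept their direction and side of the threshold, 10 moved, 3 passed it newly and 8 dropped below it. At 1.5-fold, 7 members were called higher with LPS in wild-type cells (17.7% of all genes), 1 lower with LPS in the knockout (Irf2; 22.3%), 1 higher in the untreated knockout (Irf7; 7.33%), 2 lower in the knockout with LPS (Irf1 and Irf2; 9.61%) and 3 with a smaller response in the knockout (Irf1, Irf7 and Stat2; 8.25%). At 4-fold, 2 were called higher with LPS in the knockout (3.48% of all genes), 0 higher in the knockout with LPS (0.209%) and 0 in either direction of the difference of responses (0.251% higher, 0.225% lower). Spike-in centring left 3 higher (without Irf5 and Stat2) and 1 lower (Irf2) with LPS in the knockout. With it the median LPS difference of all genes was −0.20 in wild-type cells and −0.24 in the knockout, in place of 0.01 and −0.01. For the difference of responses, normexp gave 2 lower (Irf7 at −1.11 and Stat2) and median centring 0 (Stat2 at −0.96). The LPS term of the additive fit called 3 members with quantile normalization, 3 with spike-in centring and 2 with no filter on dim probes. Over all genes, normexp gave 1156 higher and 918 lower with LPS in wild-type cells against 1769 and 1563, 1344 lower in the knockout against 2297, and 144 and 231 for the difference of responses against 262 and 453; between genotypes it gave 217 and 308 without LPS against 569 and 718, and 126 and 309 with LPS against 329 and 779. Keeping only genes above background on all 4 arrays gave 253 higher and 286 lower between untreated genotypes and 171 and 389 with LPS, fewer genes being compared. Median centring gave 533 higher in the knockout with LPS. The LPS term of the additive fit called 1954 genes higher and 1961 lower, against 2979 and 3145 with normexp, 3250 and 3184 with a trended prior, 756 and 559 with no filter, and 3243 lower with spike-in centring; the genotype term called 14 and 44 with normexp and 1 and 10 with genes above background on all 4 arrays. Without a filter the pairwise counts were 1385 to 3967. Apart from the narrower set of genes, the causes were not tested.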
